A study of Homo sapiens with 24 samples.

Results

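The comparison described here set T98G cells stably transduced to overexpress WWOX, the “WWOX” variant, against T98G cells transduced with the control lentivirus, the “Vec” variant. It covered every autosomal gene listed at 5 CPM (tags of a gene scaled to the library's total) or more in at least 1 of the 6 T98G libraries. That rule gave 9760 of the 12327 genes that reached 5 CPM in at least 1 of the 24 libraries of the series, and the deposited table listed 43037 genes. Another 315 genes reached 5 CPM in T98G but were not autosomal and were left out. The series followed 4 glioblastoma lines, T98G, U87MG, U251MG, and DBTRG-05MG, each as 3 “Vec” and 3 “WWOX” libraries sequenced by cap analysis gene expression (CAGE-Seq).

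T98G is a human glioblastoma cell line that was grown in MEM. The “WWOX” variant received the pLenti-GIII-CMV-GFP-2A-Puro construct of the GIPZ system, in which the CMV promoter drives the insert, and the “Vec” variant received Puro-Blank lentivirus. Both variants were transduced in starvation medium with polybrene and then selected with puromycin, so viral integration and antibiotic resistance were shared by the groups. Puromycin selection was described as clonal, and how many clones lay behind each variant was not given in the sources used here. If the 3 libraries of a variant came from 1 selected population, differences between that population and the other cannot be told apart from the effect of the transgene. The libraries were made in biological triplicate, and p-values measure the spread between libraries of a group. The main fit pooled that spread over the 8 groups of all 24 libraries, so the other lines count in it.

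WWOX is a tumor suppressor that spans the common fragile site FRA16D and encodes an oxidoreductase with WW domains, through which it binds partners such as p73, AP-2γ, ErbB4, and Dishevelled. CAGE captures the capped 5′ end of each transcript, so its tags count transcription starts and do not scale with transcript length. Replication-dependent histone genes, which lead the list of falls, lie as divergent pairs in clusters and are transcribed in S phase into messages without a poly(A) tail. CAGE reads them because it selects the cap and primes at random. Carboxylesterases and ABC transporters, which are among the largest rises, hydrolyse and export foreign compounds and lipids.

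The start regions of 4 genes that changed are shown because CAGE tags are counted from them. H2AC12 and H2BC12, whose tags fell together, are a divergent histone pair on chromosome 6. The 247 bases between their RefSeq starts (GRCh38.p14, chr6:27146859-27147105, minus strand, so H2BC12 begins after the last base and H2AC12 before the first, on the other strand) are printed with every TATAAA box, CCAAT box, and ATTTGCAT octamer in capitals, on either strand. The 250 bases before the start of ABCC2 (chr10:99782390-99782639, plus strand) and of ABCA1 (chr9:104928156-104928405, minus strand), both of which rose, follow with TATAAA in capitals. All bases come from RefSeq promoters of that build.
H2AC12-H2BC12: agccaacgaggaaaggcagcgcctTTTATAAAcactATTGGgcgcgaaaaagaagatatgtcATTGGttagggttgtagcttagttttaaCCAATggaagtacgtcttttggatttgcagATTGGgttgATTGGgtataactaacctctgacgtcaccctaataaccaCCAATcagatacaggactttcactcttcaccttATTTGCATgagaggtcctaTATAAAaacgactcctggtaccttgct
ABCC2: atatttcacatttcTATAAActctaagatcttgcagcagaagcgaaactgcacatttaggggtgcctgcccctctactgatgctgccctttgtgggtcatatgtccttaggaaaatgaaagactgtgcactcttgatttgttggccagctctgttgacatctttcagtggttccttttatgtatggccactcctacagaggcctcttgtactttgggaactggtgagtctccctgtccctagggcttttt
ABCA1: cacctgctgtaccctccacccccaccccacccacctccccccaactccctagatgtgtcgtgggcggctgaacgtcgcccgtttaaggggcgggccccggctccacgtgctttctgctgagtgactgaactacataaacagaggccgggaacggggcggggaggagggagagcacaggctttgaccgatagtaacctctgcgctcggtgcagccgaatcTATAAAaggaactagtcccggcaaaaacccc

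Between the histone pair lay 6 CCAAT boxes, 3 TATAAA matches, of which 2 overlap on opposite strands, and 1 octamer. A TATAAA began 30 bases before the H2AC12 start on the strand of that gene, and another 27 bases before the H2BC12 start. ABCA1 had its only match 31 bases before the start, and ABCC2 had its only match 236 bases before it. In the 250 bases before the start of 27305 RefSeq promoters, 11.1% held TATAAA, 33.0% held CCAAT, and 1.66% held ATTTGCAT on either strand. Among the members that fell and had an entry in that table, 7 of 41 held TATAAA, and among those that rose 3 of 27 did. A match of letters describes the sequence and is not a site shown to be used.

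The T98G libraries held from 10756072 to 15960454 tags. Their log2 profiles did not divide by variant. “Vec” 1 and “Vec” 3 correlated at r = 0.984 across the members, but “Vec” 2 correlated at 0.930 and 0.898 with them and at 0.970 with “WWOX” 2. “WWOX” 2 and “WWOX” 3 correlated at 0.980. “WWOX” 1 correlated most with “WWOX” 3 (0.959), but lay closer to “Vec” 1 and “Vec” 3 (0.956 with each) than to “WWOX” 2 (0.942). These are descriptions across genes, which are not independent replicates. The libraries that stood apart did so along GC content. Taken as the median log2 deviation from the mean of the 6 libraries, the level of the quintile of members with the most GC-rich transcripts (58.8% to 83.3%) less that of the GC-poorest quintile (30.7% to 41.1%) was 0.29, −0.79, and 0.94 in the “Vec” libraries and 0.42, −0.46, and −0.40 in the “WWOX” libraries. “Vec” 2 therefore sat with “WWOX” 2 and “WWOX” 3 on this measure, and “WWOX” 1 with the other “Vec” libraries.

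The comparison carried the same trend. The median log2FC (“WWOX” minus “Vec”) was 0.10, 0.06, 0.01, −0.09, and −0.19 from the GC-poorest to the GC-richest quintile. Of the members called in the GC-richest quintile, 0 rose and 21 fell, whereas in the GC-poorest quintile 6 rose and 5 fell. After a correction of every library for transcript GC content and length, these counts became 23 up and 38 down in the richest quintile and 12 up and 10 down in the poorest. By GC content within 100 bases of the annotated start, the log2FC was −0.12 between the same ends of the scale, against −0.29 by transcript GC content. For most lists the median is therefore given as scaled, with the GC correction, and without “Vec” 2, and the part of GC content in any one gene was not tested.

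**Figure D1:**
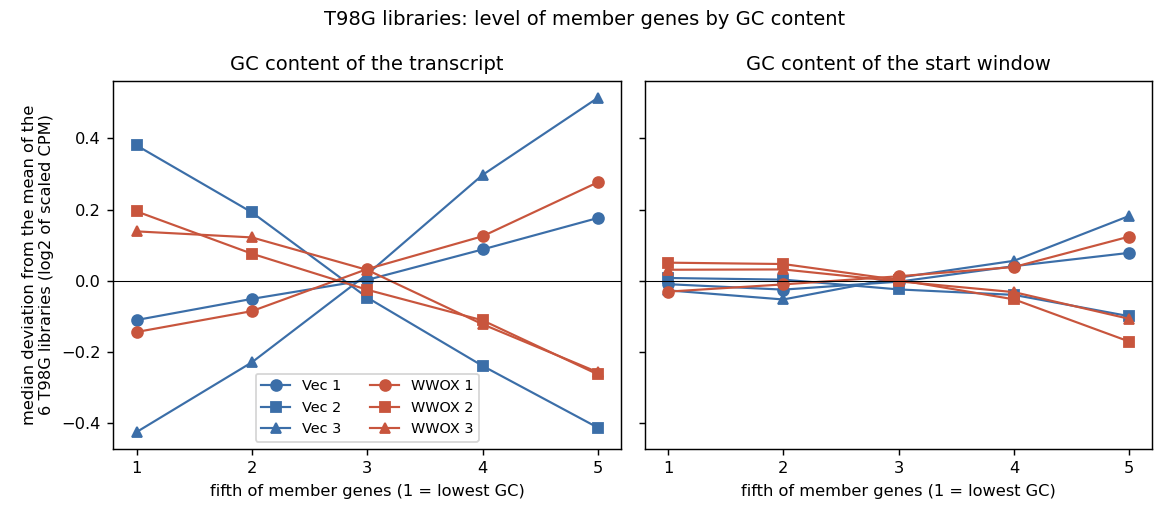
GC trend of the 6 T98G libraries. Each point is the median log2 deviation, from the mean of the 6 libraries, of a quintile of the members ranked by GC content of the transcript (left) or of the window 100 bases to each side of the start (right). “Vec” 2, “WWOX” 2, and “WWOX” 3 fall with transcript GC content while “Vec” 1, “Vec” 3, and “WWOX” 1 rise, and the trend is smaller by the start window.

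WWOX itself, the overexpressed gene on chromosome 16, was at 38.6, 57.2, and 34.2 CPM in “Vec” and 45.1, 61.8, and 59.95 CPM in “WWOX”. The groups overlapped, since “Vec” 2 lay above “WWOX” 1. The difference was log2FC 0.39 (SE 0.21, adjusted p = 0.512) and did not pass the limma test. Exchanging the libraries between variants in every way gave p = 0.2 (exact permutation test, two-sided), and 3 against 3 libraries cannot go below 0.1. In the same fit WWOX had log2FC 0.67 in U87MG, 0.01 in U251MG, and 0.39 in DBTRG-05MG. CAGE tags mark a transcript's first bases, and whether transcripts that start at the vector's own promoter were counted as WWOX could not be read from the files, so these values are no check of the transgene. The paper states that efficient transduction was established at the protein level, by Western blot.

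At an adjusted p under 0.05 (limma, Benjamini-Hochberg over the 12327 genes fitted), 100 of the 9760 members changed, 38 upward and 62 downward in “WWOX”. That is a background of 1.02% called, 0.389% upward and 0.635% downward. On the CPM values as deposited, without further scaling of the libraries, the split was 22 upward and 64 downward. The 3 libraries of each variant did not overlap for 95 of the 100 genes (all 38 rises and 57 of the 62 falls), while over all members 15.8% did not overlap, 8.15% upward and 7.62% downward. Of the 100 genes, 96 were protein-coding and 93 were also called after the GC correction, which called 234 members in all (2.4%, with 116 or 1.19% upward and 118 or 1.21% downward). Without “Vec” 2 there were 302 calls (3.09%), 90 upward (0.922%) and 212 downward (2.17%), that included 88 of the 100. A fit of the T98G libraries alone, without the spread of the other lines, called 16 members, and 14 of them were among the 100. A gene can enter only through the group where it is high, as ABCC2 and POSTN did. Among the largest changes named below, ABCC2, SLC47A1, ABCA4, and ACKR3 reached 5 CPM only in “WWOX”. IER3, SOD3, HLA-DPB1, DAAM2, CPE, TUBB2B, HSD11B1, FAM83G, PLEK, and MXRA8 reached it only in “Vec”. With a filter on a mean of 5 CPM over the 24 libraries, 51 members were called.

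The largest falls were in the histone pair and in IER3. These genes lie on chromosome 6 below 60 Mb, where members were lower as a whole, as given further on. H2AC12, which encodes a copy of core histone H2A (chr6:27147106-27147562 in GENCODE coordinates of GRCh38), stood at 138.9, 153.8, and 138.4 CPM in “Vec” and 6.32, 2.97, and 0.462 CPM in “WWOX”, log2FC −5.68 (SE 0.88, adjusted p = 0.000901). H2BC12, its divergent H2B partner (chr6:27146361-27146855), stood at 110.8, 235.5, and 132.5 CPM in “Vec” and 5.21, 2.89, and 1.32 CPM in “WWOX”, log2FC −5.54 (SE 0.50, adjusted p = 6.02e-07). The lowest “Vec” library, 110.8 CPM for H2BC12, lay far above the highest “WWOX” library, 6.32 CPM for H2AC12. The rest of the cluster did not follow to this degree, since the 5 nearest members to H2AC12 had log2FC from −0.80 to −0.18 (H2BC11 −0.80, H2AC11 −0.70, H2AC13 −0.49, H3C10 −0.37, H2BC13 −0.18) and 0 of them were called. Histone copies share long stretches of sequence, so tags can be split between them by the authors' counting.

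IER3, a stress-inducible immediate early gene whose product restrains apoptosis (chr6:30743199-30744548), was at 88.8, 48.9, and 84.3 CPM in “Vec” and 1.67, 1.19, and 0.396 CPM in “WWOX”, log2FC −5.63 (SE 0.57, adjusted p = 3.26e-06). No “WWOX” library came near a “Vec” library. The 6 nearest members of IER3 had log2FC from −0.54 to −0.18 and 0 of them were called. SOD3, the extracellular superoxide dismutase, was at 13.9, 10.6, and 3.42 CPM in “Vec” and 0, 0.0742, and 0 CPM in “WWOX”. Since no “WWOX” library held more than 1 SOD3 tag, its fall is a bound, at least 39.9-fold lower when each “WWOX” library is set at 3 tags, and its fitted log2FC of −4.13 depends on the pseudocount.

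The other 8 of the 12 largest falls were smaller. Of these, HLA-DPB1, DAAM2, and TUBB2B also lie on chromosome 6 below 60 Mb. FAM83G lies on chromosome 17, whose members were lower as a whole too, as given further on. HLA-DPB1, the beta chain of the class II molecule HLA-DP, was at 7.52, 5.64, and 10.04 CPM in “Vec” and 0.279, 0.520, and 0 CPM in “WWOX”, log2FC −3.52 (SE 0.32, adjusted p = 6.02e-07). DAAM2, a formin of the Wnt and planar polarity pathways, was at 31.5, 26.1, and 28.3 CPM in “Vec” and 4.37, 1.41, and 1.58 CPM in “WWOX”, log2FC −3.44 (SE 0.49, adjusted p = 0.000357). CPE, the carboxypeptidase that trims prohormones, was at 10.4, 21.7, and 6.46 CPM in “Vec” and 0.651, 0.594, and 0.660 CPM in “WWOX”, log2FC −3.43 (SE 0.32, adjusted p = 9.46e-07). In these 3 genes the “WWOX” libraries all lay below every “Vec” library. TUBB2B, a beta-tubulin of developing neurons, had log2FC −2.99 (adjusted p = 0.000842), and HSD11B1, the enzyme that regenerates cortisol from cortisone, had log2FC −2.85 (adjusted p = 0.00875). HSD11B1 stood at only 1.002 CPM in “Vec” 2 against 9.84 and 12.2 CPM in the other “Vec” libraries. FAM83G, a casein kinase 1 anchor (log2FC −2.78), PLEK, the protein kinase C substrate pleckstrin (log2FC −2.72), and MXRA8, a matrix remodelling-associated adhesion protein (log2FC −2.61), completed the 12 largest falls. All had groups that did not overlap, as the rule for naming them required.

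Among the rises, CES1 led. CES1, the carboxylesterase that hydrolyses ester drugs and lipids (chr16:55802851-55833337), was at 5.62, 15.7, and 11.6 CPM in “Vec” and 153.6, 76.9, and 128.5 CPM in “WWOX”, log2FC 3.46 (SE 0.31, adjusted p = 6.02e-07). Each “WWOX” library lay above each “Vec” library. Its neighbour and pseudogene copy CES1P1 also rose (log2FC 1.92, SE 0.24, adjusted p = 7.23e-05), and since the copies are near-identical their tags may be shared. ABCC2, the MRP2 pump that exports glutathione and glucuronide conjugates, was at 1.27, 1.002, and 1.40 CPM in “Vec” and 9.95, 7.496, and 15.1 CPM in “WWOX”, log2FC 2.70 (SE 0.34, adjusted p = 7.23e-05). CES1P1 was the 1 gene called among the 6 nearest members of CES1, while 0 of the 6 nearest of ABCC2 were called (log2FC −0.34 to 0.47).

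Another 3 transporters were among the 12 largest rises. ABCA1, which loads cellular cholesterol onto apolipoproteins, was at 7.87, 5.39, and 4.51 CPM in “Vec” and 37.7, 16.1, and 44.8 CPM in “WWOX”, log2FC 2.30 (SE 0.42, adjusted p = 0.00485). SLC47A1, the MATE1 exporter of organic cations, was at 3.59, 2.88, and 1.32 CPM in “Vec” and 14.1, 11.4, and 10.4 CPM in “WWOX”, log2FC 2.11 (SE 0.30, adjusted p = 0.000356). ABCA4, a lipid flippase best known from photoreceptors, was at 2.88, 3.57, and 2.26 CPM in “Vec” and 15.6, 7.94, and 11.9 CPM in “WWOX”, log2FC 1.85 (SE 0.29, adjusted p = 0.00101). The rises of EFEMP1, the matrix protein fibulin-3, and of SOST, the Wnt antagonist sclerostin, were uneven across the controls, with “Vec” 2 nearest to the “WWOX” libraries. EFEMP1 stood at 15.3, 89.97, and 14.01 CPM in “Vec” and 154.7, 140.7, and 197.3 CPM in “WWOX” (log2FC 2.58, SE 0.44, adjusted p = 0.00264). SOST stood at 3.80, 14.2, and 1.48 CPM in “Vec” and 14.7, 24.2, and 27.5 CPM in “WWOX” (log2FC 2.17, SE 0.38, adjusted p = 0.00368). Without “Vec” 2 their log2FC were 3.35 and 2.86.

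PEG10, an imprinted gene derived from a retrotransposon, was at 0.984, 9.59, and 1.01 CPM in “Vec” and 10.1, 22.6, and 27.7 CPM in “WWOX”, log2FC 2.80 (SE 0.66, adjusted p = 0.0364). It starts next to SGCE, which is imprinted alike and read from the other strand, and whether tags were counted by strand was not given in the sources used here. SGCE had log2FC 0.77 (adjusted p = 0.301). PEG10 lost its call in 8 of the 18 alternative analyses. S100P, a calcium-binding protein (log2FC 1.99), PEA15, a death effector domain adaptor that holds ERK in the cytoplasm (log2FC 1.87), and ACKR3, an atypical receptor for CXCL12 (log2FC 1.80), completed the largest rises. The 24 genes with the largest changes all stayed called after the GC correction and without “Vec” 2, and 19 of them stayed called with each T98G library left out in turn. Fewer stayed called with a filter on a mean of 5 CPM (15 of 24) and with the T98G libraries alone (13 of 24). In all 18 alternatives 13 genes stayed called, which were CES1, ABCC2, H2AC12, H2BC12, IER3, SOD3, HLA-DPB1, DAAM2, CPE, TUBB2B, FAM83G, PLEK, and MXRA8. Apart from CES1, H2AC12, and H2BC12, these genes reached 5 CPM only in the variant where they were high.

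**Figure D2:**
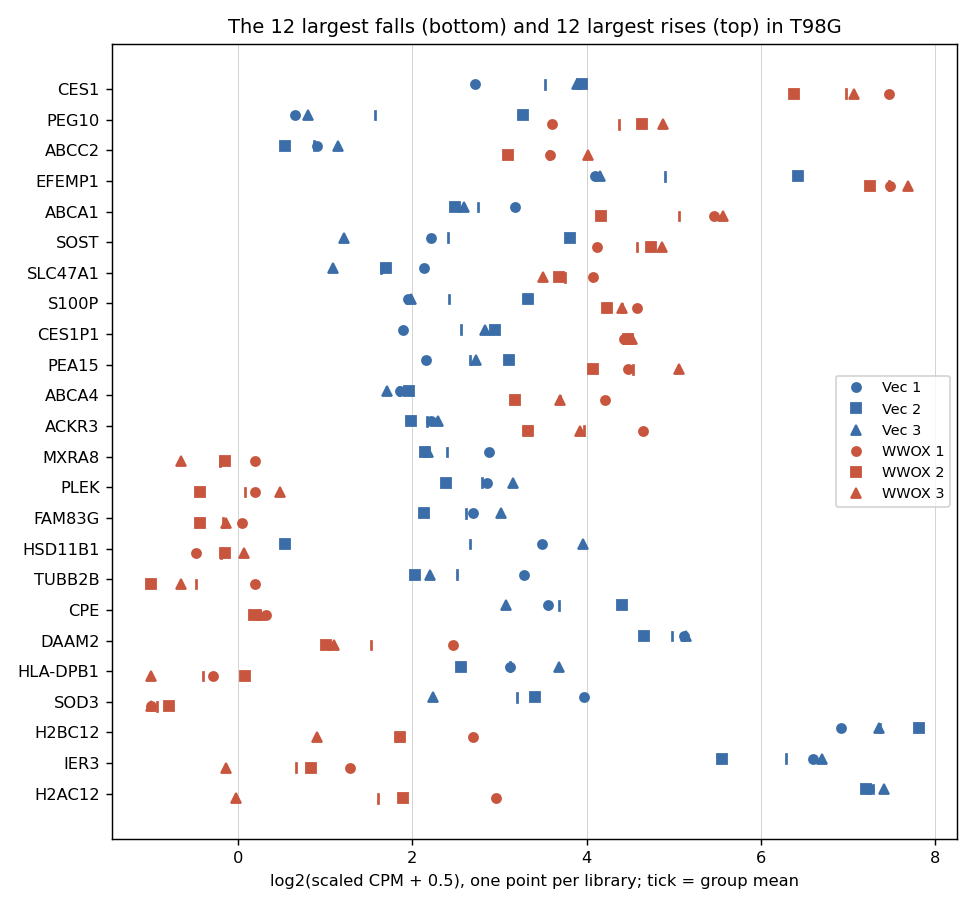
Levels of the 12 largest falls and 12 largest rises in T98G as log2(scaled CPM + 0.5). Each point is 1 of the 3 “Vec” (blue) or 3 “WWOX” (red) libraries and each tick a group mean, and no gene has overlapping groups, although “Vec” 2 (blue square) lies nearest to the “WWOX” libraries for several of them, such as PEG10, EFEMP1, SOST, S100P, and HSD11B1.

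Whether these changes differed from those of the other lines was asked with a contrast of the T98G log2FC against the mean log2FC of U87MG, U251MG, and DBTRG-05MG in the same limma fit. Of the 9760 members, 121 differed at an adjusted p under 0.05 (1.24%), 50 toward higher (0.512%) and 71 toward lower (0.727%) values in T98G, and 67 of the 100 T98G calls were among them. CES1 had log2FC 3.46 in T98G and 0.00, −0.11, and −0.20 in U87MG, U251MG, and DBTRG-05MG (difference 3.56, adjusted p = 4.80e-06). IER3 had −5.63 in T98G and −0.01, 0.54, and 0.09 in the same order elsewhere (adjusted p = 2.20e-05). H2BC12 had −5.54 in T98G and −0.44, −1.31, and −0.74 elsewhere (adjusted p = 5.87e-05). For each of these 3 genes the T98G change lay beyond that of the mean of the other lines. DAAM2 differed by less than the test could separate, with −3.44 in T98G and −2.72, −1.25, and −0.40 elsewhere (adjusted p = 0.0822), and it fell in U87MG too (adjusted p = 0.0011).

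Some of these genes were also called in another line. Of the 100 T98G calls, 4 were called in the same direction in U87MG and 7 in the opposite direction, 1 and 1 in U251MG, and 0 and 1 in DBTRG-05MG, where 181 (1.85%), 17 (0.174%), and 46 (0.471%) of the members were called in all. ABCC2, which rose in T98G, had log2FC −2.66 in U87MG (adjusted p = 1.49e-05), and HLA-DPB1, which fell in T98G, had 1.69 in DBTRG-05MG (adjusted p = 0.00496). EFEMP1 had log2FC 1.65 and ACKR3 had 1.50 in U87MG (adjusted p = 0.0377 and 0.00464). SLC47A1 was at −1.53 there (adjusted p = 0.00252). CPE fell in U251MG as well, with log2FC −2.07 (adjusted p = 0.00263).

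**Figure D3:**
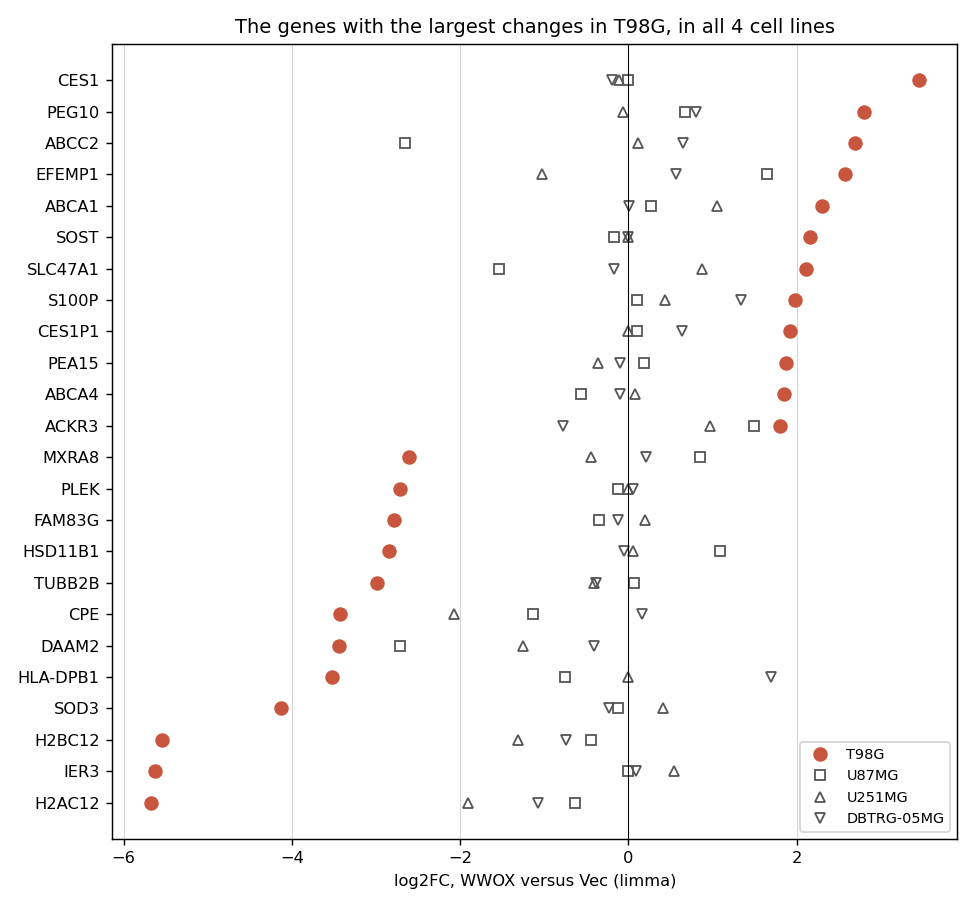
The log2FC (“WWOX” minus “Vec”, limma) of the same 24 genes in T98G (filled) and the other 3 lines (open). T98G lies farther from 0 than each other line for all 24 genes, from −5.68 for H2AC12 to 3.46 for CES1, and these genes were picked for the size of their change in T98G.

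The 40 gene lists held 1001 members, and 17 of the 100 calls fell in 13 of them. Each list is read against all members, of which 4774 of 9760 (48.9%) had a positive log2FC, with a median of −0.01 before and 0.04 after the GC correction.

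Genes that detoxify foreign compounds and oxidants lay mostly higher in “WWOX”. Of 47 members, 2 rose (CES1 and ABCC2), 0 fell, and 32 were positive, with a median log2FC of 0.29 as scaled, 0.36 GC-corrected, and 0.36 without “Vec” 2, and 6 were called upward with the GC correction. By library, as log2 difference from the mean of the T98G libraries, the list's median was −0.25, −0.24, and 0.01 in “Vec”. It was 0.28, −0.01, and 0.23 in “WWOX”, so “Vec” 3 and “WWOX” 2 stood at nearly the same level. NRF2 is the transcription factor that switches on antioxidant and glutathione genes, and 17 of its 20 listed targets were positive (median 0.43, 0 called). AKR1B10, an aldo-keto reductase, was at 18.3, 61.1, and 20.2 CPM in “Vec” and 66.5, 77.5, and 104.6 CPM in “WWOX”, log2FC 1.51 (adjusted p = 0.0612). “Vec” 2 lay close to “WWOX” 1 for this gene, and without “Vec” 2 the adjusted p was 0.00507. Of the reductases and esterases, 6 of 15 were positive, CES1 included.

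Genes of protein folding in the endoplasmic reticulum (ER) lay higher in “WWOX” as a list, although 0 members passed the test. Of 31 ER chaperone and ER-associated degradation members, 28 were positive, with a median of 0.38 as scaled, 0.46 GC-corrected, and 0.32 without “Vec” 2. By library, as log2 difference from the mean of the T98G libraries, the list's median was −0.40, 0.06, and −0.22 in “Vec”. It was 0.02, 0.37, and 0.20 in “WWOX”, so “Vec” 2 stood above “WWOX” 1. SSR3 and SSR2, subunits of the translocon-associated complex, had log2FC 1.23 (adjusted p = 0.199) and log2FC 1.13 (adjusted p = 0.216). SEC63, a translocation partner of BiP, was at 4.43, 10.2, and 5.84 CPM in “Vec” and 11.1, 22.2, and 39.3 CPM in “WWOX”, log2FC 1.67 (adjusted p = 0.313). For SSR3 the level in “Vec” 2, 584.3 CPM, exceeded that in “WWOX” 1, 426.6 CPM.

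The integrated stress response, the translational program run by ATF4, showed 30 of 41 members positive, a median of 0.18 as scaled, 0.25 GC-corrected, and 0.30 without “Vec” 2, and 0 calls. ATF5, a factor of that program, was at 5.34, 5.26, and 5.53 CPM in “Vec” and 18.97, 9.35, and 13.3 CPM in “WWOX”, log2FC 1.25 (adjusted p = 0.0678), and passed after the GC correction (adjusted p = 0.00734). ATF4 itself had log2FC 0.90 (adjusted p = 0.621), and NARS1, which charges asparagine tRNA, had log2FC 0.85 (adjusted p = 0.504). Proteasome and COP9 signalosome genes had 29 of 41 positive (median 0.18 as scaled, 0.15 GC-corrected, and 0.21 without “Vec” 2, 0 called), with PSMD11, PSMD5, and PSMC1 at log2FC 0.96, 0.89, and 0.64. Cytosolic heat shock genes had 15 of 23 positive (median 0.19 as scaled, 0.13 GC-corrected, and 0.31 without “Vec” 2, 0 called). DNAJB6, an HSP70 co-chaperone, had log2FC 0.71 (adjusted p = 0.111), BAG3 had log2FC 0.68, and HSP90AB1 had −0.59.

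Inflammatory genes lay lower in “WWOX” as lists, again with 0 calls. Of 21 NF-κB response and chemokine members 2 were positive, with a median of −0.62 as scaled, −0.51 GC-corrected, and −0.63 without “Vec” 2. The secreted and surface products had 0 of 9 positive (median −0.75), and the subunits and feedback genes had 2 of 12 positive (median −0.37). CSF2, which encodes the cytokine GM-CSF, was at 7.66, 1.63, and 5.92 CPM in “Vec” and 0.558, 1.04, and 0.0660 CPM in “WWOX”, log2FC −2.35 (SE 0.99, adjusted p = 0.343). NFKB1, the p50 precursor, was at 28.1, 27.4, and 23.9 CPM in “Vec” and 19.3, 17.8, and 17.8 CPM in “WWOX”, log2FC −0.51 (adjusted p = 0.423). TNFAIP3, the feedback inhibitor A20, had log2FC −0.79 (adjusted p = 0.472). The list's median level by library was 0.35, −0.30, and 0.63 in “Vec” and 0.13, −0.34, and −0.62 in “WWOX” (log2 difference from the mean of the 6), so “Vec” 2 stood with “WWOX” 2 and below “WWOX” 1. The part of the GC trend in this list was not tested. For CSF2 and NFKB1 the groups did not overlap and neither gene passed the test.

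Interferon-stimulated genes showed 5 of 31 positive and a median of −0.53 as scaled, −0.50 GC-corrected, and −0.51 without “Vec” 2. The antiviral effectors had 2 of 19 positive (median −0.59). IFI27, a mitochondrial interferon-induced protein, was at 15.3, 4.45, and 42.6 CPM in “Vec” and 1.02, 1.19, and 0.990 CPM in “WWOX”, log2FC −3.29 (SE 1.23, adjusted p = 0.256). The “Vec” libraries were far apart from each other and all above “WWOX”. XAF1, an antagonist of the apoptosis inhibitor XIAP, had log2FC −1.10 (adjusted p = 0.376), and PSMB8, an immunoproteasome subunit, had log2FC −0.82 (adjusted p = 0.452). The class I antigen presentation list had 4 of 14 positive (median −0.08 as scaled, −0.01 GC-corrected, and −0.16 without “Vec” 2, 0 called). TAP1, HLA-E, and TAPBP had log2FC −0.75, −0.73, and −0.34.

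Integrins and laminins lay lower in “WWOX” as a list, with 1 call. Integrins are the receptors that hold cells to laminin and other matrix proteins, and 2 of 16 integrin and laminin members were positive (median −0.55 as scaled, −0.43 GC-corrected, and −0.45 without “Vec” 2). LAMB3, a chain of laminin-332, fell, standing at 35.6, 5.33, and 24.9 CPM in “Vec” and 3.07, 3.71, and 3.90 CPM in “WWOX”, log2FC −2.12 (SE 0.44, adjusted p = 0.015). “Vec” 2 was again closest to “WWOX”, and without it the adjusted p was 2.18e-07. ITGA3, which pairs in the laminin receptor α3β1, was at 92.3, 67.9, and 78.5 CPM in “Vec” and 53.8, 27.3, and 40.3 CPM in “WWOX” (SE 0.29 on the log2 scale, adjusted p = 0.108). ITGB8, the chain that activates latent TGF-β, had log2FC −1.14 (adjusted p = 0.153). Both passed after the GC correction, with which 4 members were called lower. The 15 collagens had 9 positive (median 0.08 as scaled, 0.14 GC-corrected, and 0.23 without “Vec” 2, 0 called), with COL6A1 at log2FC −0.89 (adjusted p = 0.192), COL16A1 at 0.57, and COL27A1 at −0.63.

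Matrix proteases and matrix proteins had 33 members, 2 of which fell (POSTN and SMOC1) and 11 of which were positive (median −0.43 as scaled, −0.26 GC-corrected, and −0.22 without “Vec” 2). POSTN, the matrix protein periostin, was at 1.62, 6.33, and 1.63 CPM in “Vec” and 0.372, 0.0742, and 0.0660 CPM in “WWOX”, log2FC −2.31 (SE 0.34, adjusted p = 0.000613). SMOC1, a secreted calcium-binding protein that antagonises BMP, was at 2.18, 5.33, and 3.81 CPM in “Vec” and 0.744, 0.891, and 0.792 CPM in “WWOX”, log2FC −1.66 (SE 0.25, adjusted p = 0.000842). POSTN and SMOC1 reached 5 CPM only in “Vec” 2, so both became members through the group where they were high. SERPINE2, the protease nexin that inhibits thrombin and urokinase, went the other way and missed the threshold narrowly, at 149.5, 107.5, and 68.03 CPM in “Vec” and 181.1, 282.5, and 446.1 CPM in “WWOX”, log2FC 1.47 (adjusted p = 0.0506). By role the matrix proteins had 3 of 16 positive (median −0.48), while the metalloproteases and their inhibitors had 6 of 12 positive. Contractile actin and adhesion plaque genes had 18 of 32 positive (median 0.15 as scaled, 0.19 GC-corrected, and 0.16 without “Vec” 2, 0 called), with TPM4 and TAGLN at log2FC 0.93 and −1.04.

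Metallothioneins, the small cysteine-rich proteins that buffer zinc and copper, lay lower in “WWOX” as a list. With the zinc transporters they made 9 members, of which 1 was positive (median −0.53 as scaled, −0.42 GC-corrected, and −0.66 without “Vec” 2). MT1E fell, at 99.3, 86.8, and 70.8 CPM in “Vec” and 27.2, 39.9, and 15.9 CPM in “WWOX”, log2FC −1.69 (SE 0.31, adjusted p = 0.00583). MT2A was at 7491, 3065, and 5763 CPM in “Vec” and 1282, 2139, and 1329 CPM in “WWOX”, log2FC −1.72 (adjusted p = 0.0653), and MT1F at 111.3, 45.7, and 123.7 CPM in “Vec” and 37.1, 33.03, and 27.00 CPM in “WWOX”, log2FC −1.40 (adjusted p = 0.0907). In all 3 genes every “WWOX” library lay below every “Vec” library, and 4 members were called lower without “Vec” 2. The metallothionein copies on chromosome 16 are near-identical in their coding exons, so tags may be shared among them.

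Among developmental regulators, the HOX genes, which fix position along the body axis, had 10 members and 1 call. HOXB6 fell, at 8.72, 7.64, and 7.71 CPM in “Vec” and 4.74, 2.75, and 2.97 CPM in “WWOX”, log2FC −1.13 (SE 0.24, adjusted p = 0.0187). All 4 HOXB members were negative (median −0.76) and both HOXD members were positive (median 0.74), HOXD11 with log2FC 0.83 (adjusted p = 0.285), and HOXA3 had −0.56. The HOXB cluster lies on chromosome 17, whose members were lower as a whole, as given further on. Imprinted and retrotransposon-derived genes had 11 of 14 positive (median 0.15 as scaled, 0.32 GC-corrected, and 0.19 without “Vec” 2), with PEG10 called up and IGF2 called down. IGF2, the fetal growth factor, was at 4.71, 8.71, and 3.35 CPM in “Vec” and 0.930, 1.11, and 0.858 CPM in “WWOX”, log2FC −1.98 (SE 0.23, adjusted p = 1.62e-05). It reached 5 CPM only in “Vec” 2. Dendrite and axon genes had 13 of 22 positive (median 0.11 as scaled, 0.27 GC-corrected, and 0.16 without “Vec” 2, 0 called). DPYSL3, a collapsin response mediator, had log2FC −1.01 (adjusted p = 0.0557), and SLIT2, a repulsive guidance ligand, had log2FC 1.37 (adjusted p = 0.147). DAAM1, the paralog of DAAM2, had log2FC 1.18 (adjusted p = 0.151), without passing the test.

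In the TGF-β and activin response 3 of 17 were positive (median −0.36 as scaled, −0.26 GC-corrected, and −0.30 without “Vec” 2), and LTBP1, which stores latent TGF-β in the matrix, fell, at 6.12, 3.26, and 3.50 CPM in “Vec” and 1.12, 0.594, and 0.990 CPM in “WWOX”, log2FC −1.77 (SE 0.39, adjusted p = 0.0262). LTBP1 reached 5 CPM only in “Vec” 1. LMCD1 had log2FC −0.81. The ID genes and BMP response had 2 of 14 positive (median −0.27 as scaled, −0.22 GC-corrected, and −0.25 without “Vec” 2, 0 called), with MSX2 at −0.63, ID2 at −0.85, and BAMBI at −1.03. Receptor tyrosine kinases had 2 of 16 positive (median −0.39 as scaled, −0.30 GC-corrected, and −0.55 without “Vec” 2, 0 called). Here EPHB2 had log2FC −0.89 (adjusted p = 0.166) and ERBB2 had log2FC −0.79 (adjusted p = 0.213), while EGFR had log2FC 0.54 (adjusted p = 0.234). Of 9 Wnt genes (median −0.02 as scaled, 0.11 GC-corrected, and −0.01 without “Vec” 2) NKD2, an antagonist that binds Dishevelled, fell (log2FC −0.89, SE 0.21, adjusted p = 0.0439), and WNT5A and WNT9A had log2FC 0.49 and 0.37. NKD2 did not pass after the GC correction (adjusted p = 0.291).

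In the MAPK feedback list (6 of 17 positive, median −0.08 as scaled, −0.03 GC-corrected, and −0.06 without “Vec” 2) PHLDA1, a pleckstrin-like protein induced by ERK, fell, at 621.0, 486.0, and 421.3 CPM in “Vec” and 215.6, 238.5, and 148.1 CPM in “WWOX”, log2FC −1.34 (SE 0.33, adjusted p = 0.0459), with an adjusted p of 0.0676 after the GC correction. SPRY4 and HBEGF had log2FC −0.78 and −0.80. The immediate early and AP-1 genes had 10 of 24 positive (median −0.17 as scaled, −0.06 GC-corrected, and −0.14 without “Vec” 2), and IER3 was their only call, next to SRF at −0.71 and ZFP36 at 0.59. The log2FC of IER3 was the lowest of that list, and no other member passed the test. Among the YAP and TAZ targets (14 of 31 positive, median −0.03 as scaled, 0.02 GC-corrected, and 0.12 without “Vec” 2) FOXF2, a forkhead factor of mesenchyme, fell, at 36.8, 29.8, and 41.4 CPM in “Vec” and 14.6, 8.68, and 7.46 CPM in “WWOX”, log2FC −1.80 (SE 0.26, adjusted p = 0.000474). FOXF2 lies on chromosome 6 below 60 Mb, where members were lower as a whole. TEAD3 and CRIM1 had −0.61 and 0.79.

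The 51 replication-dependent histone members had 10 positive and a median of −0.42 as scaled, −0.14 GC-corrected, and −0.50 without “Vec” 2. H2AC12 and H2BC12 were the 2 calls. H4C2, an H4 gene, came next by p, at 958.9, 705.4, and 752.5 CPM in “Vec” and 398.8, 290.3, and 161.8 CPM in “WWOX”, log2FC −1.58 (adjusted p = 0.199). By core type the medians were −0.14 for H2A, −0.23 for H2B, −0.45 for H3, −0.43 for H4, and −0.50 for linker histones. The list's median level in each library, as log2 difference from the mean of the 6, was 0.09, 0.16, and 0.49 in “Vec” and −0.53, 0.40, and −0.42 in “WWOX”, so “WWOX” 2 stood with the “Vec” libraries.

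Cell cycle genes followed single libraries more than variants. Mitotic genes had 9 of 49 positive (median −0.31 as scaled, −0.32 GC-corrected, and 0.07 without “Vec” 2) and replication genes 12 of 45 positive (median −0.18 as scaled, −0.15 GC-corrected, and 0.07 without “Vec” 2), with 0 calls in either. Library medians for the mitotic genes were −0.05, 0.90, and −0.33 in “Vec” and −1.25, 0.74, and 0.12 in “WWOX”, and for the replication genes −0.14, 0.66, and −0.27 in “Vec” and −0.86, 0.65, and 0.00 in “WWOX”. “Vec” 2 and “WWOX” 2 were high and “WWOX” 1 was low. CKS2, PTTG1, and SMC4 had log2FC −1.02, −0.91, and 0.91, and CCNE1, MCM3, and RFC1 had −0.80, −0.87, and 0.69.

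Housekeeping lists had 0 calls. Cytosolic ribosomal protein genes had 30 of 71 positive (median −0.14 as scaled, 0.02 GC-corrected, and −0.21 without “Vec” 2, 0 called). RPL41 was at 2276, 1782, and 1870.3 CPM in “Vec” and 970.1, 842.4, and 699.2 CPM in “WWOX”, log2FC −1.23 (adjusted p = 0.0967), while its pseudogene copy RPL41P5 fell (log2FC −1.55, SE 0.38, adjusted p = 0.0439). Their tags may be shared. FAU had log2FC 1.48. Respiratory chain subunits had 26 of 54 positive (median −0.02 as scaled, 0.11 GC-corrected, and −0.14 without “Vec” 2, 0 called), with NDUFB9 at 0.95, NDUFB4 at −0.68, and NDUFB6 at −0.76. Lysosomal genes had 24 of 44 positive (median 0.07 as scaled, 0.12 GC-corrected, and −0.22 without “Vec” 2, 0 called), with the cathepsins CTSS and CTSC at −1.18 and −0.86 and HEXA at 0.75. Cholesterol and fatty acid synthesis had 14 of 30 positive (median −0.02 as scaled, 0.06 GC-corrected, and −0.09 without “Vec” 2, 0 called), with ACSS2 at −0.98, SREBF2 at 0.92, and ELOVL6 at −0.65.

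Hypoxia and glycolysis had 20 of 39 positive (median 0.02 as scaled, 0.07 GC-corrected, and −0.07 without “Vec” 2) and 1 call. SLC16A3, the lactate exporter MCT4, fell, at 318.5, 277.6, and 323.3 CPM in “Vec” and 103.9, 79.7, and 71.5 CPM in “WWOX”, log2FC −1.85 (SE 0.45, adjusted p = 0.0479), while HK2, the first enzyme of glycolysis in tumors, had log2FC 0.66 (adjusted p = 0.445). The p53 targets had 8 of 24 positive (median −0.20 as scaled, −0.13 GC-corrected, and −0.18 without “Vec” 2, 0 called), with TP53I3 at log2FC −1.12 (adjusted p = 0.248), POLH at −0.62, and PLK2 at −0.71. Apoptosis genes had 7 of 20 positive (median −0.19 as scaled, −0.22 GC-corrected, and −0.30 without “Vec” 2, 0 called), with MCL1 at −0.62, BCL2L11 at 0.65, and BIRC3 at −0.99. WWOX and its binding partners had 10 of 23 positive (median −0.16 as scaled, −0.08 GC-corrected, and −0.06 without “Vec” 2, 0 called). Among those partners RUNX2, a transcription factor of bone, had log2FC −0.75 (adjusted p = 0.37), and SCAMP3, a membrane carrier protein, had log2FC 0.51 (adjusted p = 0.372).

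Small nucleolar RNA host genes had 6 of 19 positive (median −0.23 as scaled, −0.11 GC-corrected, and −0.33 without “Vec” 2, 0 called), with SNHG6, SNHG25, and SNHG8 at log2FC −0.86, −0.99, and −0.83. The 4 cancer-testis members had a median of −0.19 as scaled, −0.20 GC-corrected, and 0.32 without “Vec” 2 (TTK 0.39, CEP55 −0.24, ATAD2 −0.23) and the 4 clustered protocadherins one of 0.49 as scaled, 0.59 GC-corrected, and 0.34 without “Vec” 2 (PCDHB7 1.27, PCDHGA9 0.56, PCDHGC3 0.41), with 0 calls in both. By library the cancer-testis median was −0.17, 0.996, and −0.58 in “Vec” and −1.24, 0.82, and 0.23 in “WWOX”. The protocadherin gamma genes overlap one another and share exons, so their tags may be split.

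**Figure D4:**
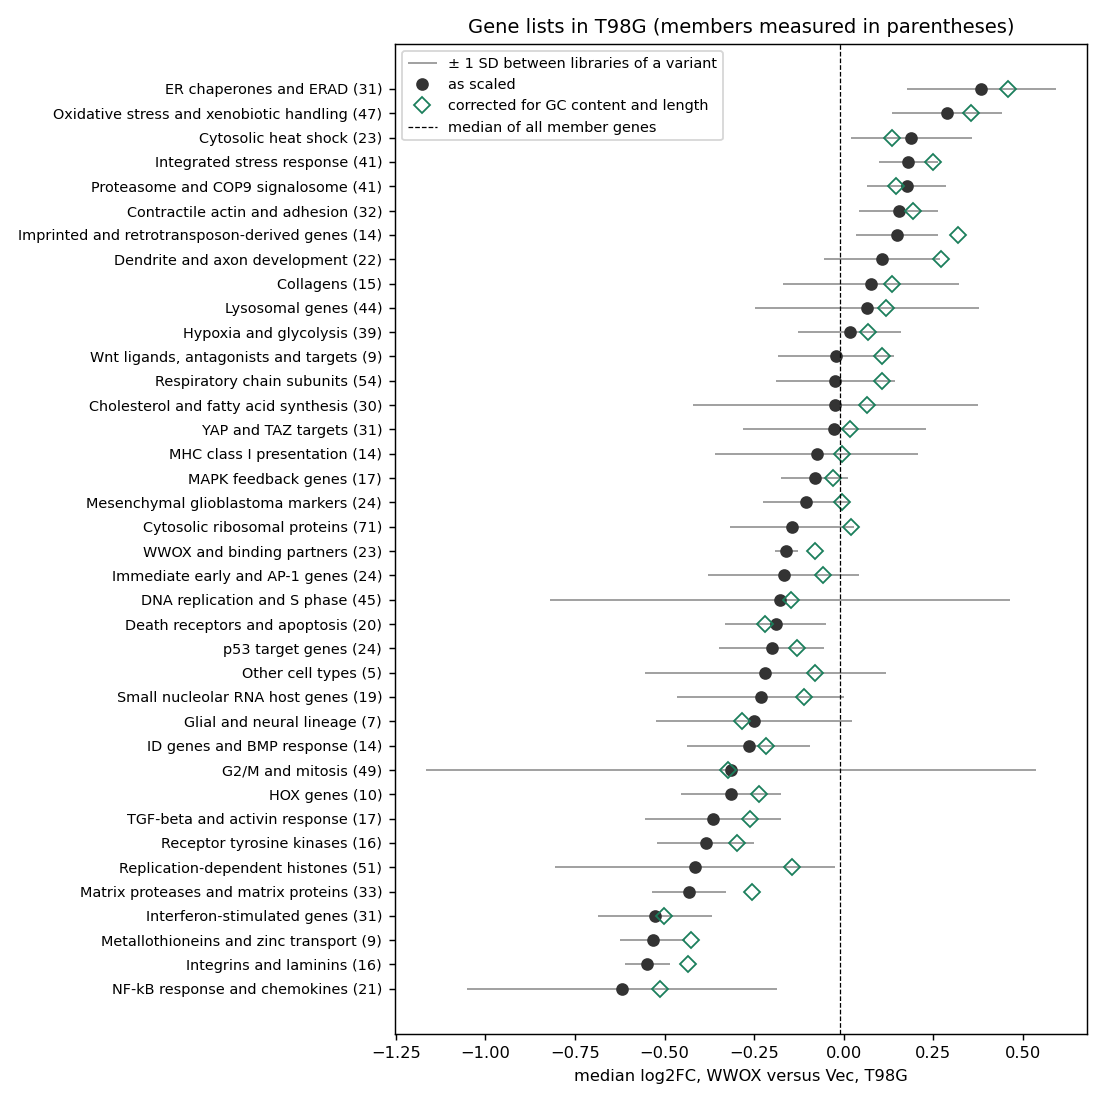
Median log2FC of each list with at least 5 members as scaled (filled) and after the GC and length correction (open). Lines give ± 1 SD between the libraries of a variant around the scaled median, and the dashed line is the median of all members (−0.01), so the order runs from ER chaperones (0.38) to the NF-κB response (−0.62), with the widest line for mitotic genes.

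Markers of cell identity checked the label of a glioblastoma line. Of 10 glial markers 2 were members, SOX9 and GFAP, and OLIG1 was at 0 in all 6 libraries. SOX9 was at 74.6, 77.8, and 56.3 CPM in “Vec” and 45.1, 49.3, and 63.6 CPM in “WWOX”. GFAP, the astrocyte filament, was at 1.62, 2.005, and 2.34 CPM in “Vec” and 11.6, 2.52, and 2.11 CPM in “WWOX”, so “WWOX” 1 stood apart from the other 5 libraries. Glial markers summed to 60.4 to 84.5 CPM in “Vec” and 55.9 to 69.8 CPM in “WWOX”. The 8 mesenchymal markers summed to 8622 to 22325 CPM in “Vec” and 7023 to 9146 CPM in “WWOX”, carried by S100A6 (12415, 2811, and 9614 CPM in “Vec” and 4309.9, 2543, and 2426 CPM in “WWOX”) and LGALS1 (6825, 2505, and 7539.9 CPM in “Vec” and 2408, 2132, and 1976 CPM in “WWOX”). Most of the defining glial genes were thus at or near 0 in this line, and the mesenchymal ones were not.

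Neither list had a call. The wider list of mesenchymal glioblastoma markers had 11 of 24 positive (median −0.11 as scaled, −0.01 GC-corrected, and −0.10 without “Vec” 2), with S100A4 at log2FC −1.61 (adjusted p = 0.162), and the glial and neural lineage list had 3 of 7 positive (median −0.25 as scaled, −0.28 GC-corrected, and 0.13 without “Vec” 2, where 1 member, MAP2, was called upward). In that list MAP2, a dendritic microtubule protein, was at 18.8, 76.3, and 10.97 CPM in “Vec” and 94.2, 74.8, and 142.6 CPM in “WWOX”, log2FC 1.98 (adjusted p = 0.153), and TUBB3 and GLUL had −0.62 and 0.35. Leukocyte, endothelial, and epithelial markers summed to at most 0.141, 0.660, and 1.41 CPM in any library, with CD3E, CD68, AIF1, CDH1, and KRT5 at 0. Fibroblast markers summed to 56.2 to 82.6 CPM in “Vec” and 35.7 to 40.1 CPM in “WWOX”, nearly all of it PDGFRB (54.1, 66.7, and 60.6 CPM in “Vec” and 33.4, 33.4, and 30.5 CPM in “WWOX”, log2FC −0.88, adjusted p = 0.394). The 5 members of the list of other cell types included KRT8 (log2FC 0.42) and THY1 (−0.51), and 0 of them were called. In these bulk libraries fewer cells of a kind and less RNA per cell cannot be told apart.

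Part of the downward change lay along chromosomes. The 625 members on chromosome 17 had a median log2FC of −0.37 (−0.28 GC-corrected), and 83.2% of them were negative (76.8% corrected). All 15 windows of 5 Mb with at least 10 members were negative, with medians from −0.53 to −0.21. Chromosome 17 held 13 of the 62 falls (20.97%) but 6.40% of the members, and 33 of the 118 falls after the GC correction (28.0%). FAM83G, HOXB6, and SLC16A3 were among the 13. ITGA3 and ERBB2, which did not pass as scaled, also lie on this chromosome. The median chromosome 17 level by library, as log2 difference from the mean of the 6, was 0.24, −0.05, and 0.38 in “Vec” and −0.06, −0.24, and −0.25 in “WWOX”. “Vec” 2 and “WWOX” 1 lay at nearly the same level, and the others were apart by variant. In U87MG, U251MG, and DBTRG-05MG the chromosome 17 medians were −0.08, −0.04, and 0.00.

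Chromosome 6 was split at 60 Mb, a position chosen with earlier results known. Its 313 members below that position, which include the histone cluster, IER3, and the class II genes, had a median of −0.34 (−0.24 GC-corrected), and 6 of 7 windows were negative. The 194 members beyond it had a median of 0.08 (0.04), and 1 of 8 windows was negative. The lower stretch held 7 of the calls among its 313 members, which were H2AC12, H2BC12, IER3, HLA-DPB1, DAAM2, TUBB2B, and FOXF2. The upper stretch held 1 among its 194, and over all members 1.02% were called. Chromosome 6 as a whole held 8 of the 62 falls and 0 of the 38 rises, with 5.19% of the members. Chromosome 22 had a median of 0.14 (0.25 GC-corrected) that became −0.01 without “Vec” 2. Chromosome 19, whose members had a median GC content of 59.9%, had −0.10 before and 0.06 after the correction. Chromosomes 4 and 13 had medians of 0.15 and 0.15, and chromosome 21 had −0.18. Copy number was not measured in these files.

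**Figure D5:**
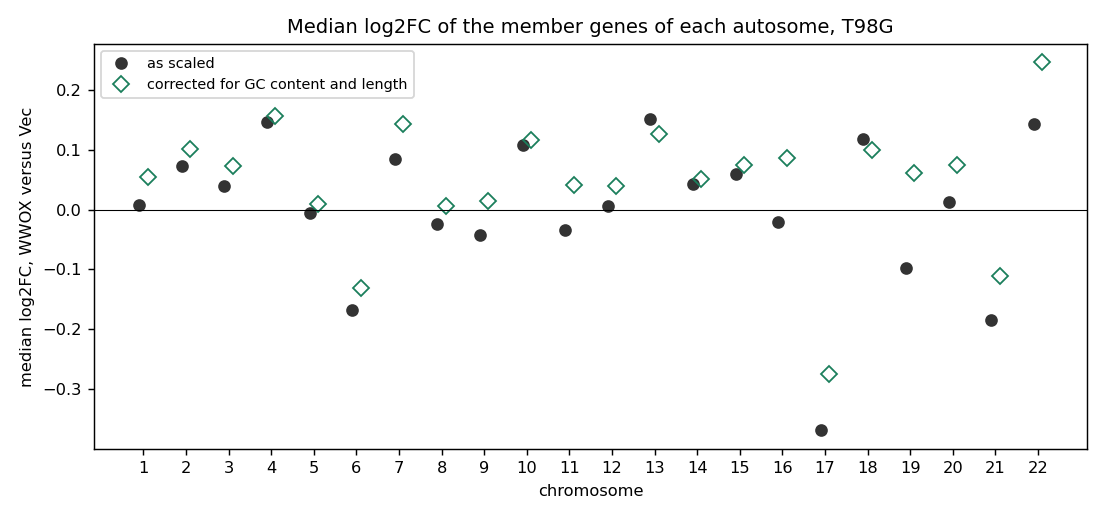
Median log2FC of the members of each autosome as scaled (filled) and after the GC and length correction (open). Chromosome 17 is lowest at −0.37 and stays lowest after correction at −0.28, while chromosome 19 changes sign.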

How the data were processed

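CAGE libraries were mapped with STAR and SAMtools to hg38 by the authors, who deposited CPM values per gene for 24 libraries; the 24 single-library tables held the same values, and no column was left unused. Every deposited CPM value came out as a whole number of tags within 0.001, so tags were recovered for the count tests. How tags were assigned by strand is not given in the sources used here. Genes at 5 CPM or more in at least 1 library were kept, libraries were scaled by TMM, and log2(CPM + 0.5) was fitted for all 24 libraries in 8 groups with limma 3.58.1 in R 4.3.3 (trend, two-sided, threshold 0.05); the submitters’ processing notes name limma 3.42 for their own test. A fold change on this scale understates the change of low genes. Of 43037 gene IDs, 43033 matched a symbol in GENCODE release 44. The median standard error of a T98G log2FC was 0.316. The fits were also run on simulated tags, drawn independently for each gene and without a GC trend. That run therefore does not cover the GC trend of these libraries.

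Members and lists were chosen with earlier results of these data known. Named genes were WWOX, the 12 largest rises and 12 largest falls among calls without overlap, per list all calls (8 at most) and up to 3 members of smallest p, and cell type markers above 0; some genes this rule names are not reported here. Chromosome arms had been planned, and 5 Mb windows were used instead. Alternatives were edgeR 4.0.16, DESeq2 1.42.0, voom, other pseudocounts, filters, and scalings, quality weights, a replicate block, corrections for GC content and length, and each library left out. The GC corrections in T98G alone and without “Vec” 2 were added after seeing the data. RefSeq promoters matched 15 of the 24 largest-change genes by symbol and 7858 of the 9760 members.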

Additional observations from a re-analysis of the deposited data

Results flagged for a closer look

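A closer look is drawn first to genes whose change in T98G differed from the mean change of the other 3 lines by the limma contrast, of which there were 121 among the members at an adjusted p under 0.05. In parentheses is the T98G log2FC minus the mean log2FC of U87MG, U251MG, and DBTRG-05MG. It was positive for CES1 (3.56), ABCC2 (3.33), EFEMP1 (2.18), SOST (2.22), SLC47A1 (2.38), CES1P1 (1.67), PEA15 (1.96), ABCA4 (2.04), and NDUFB9 (1.36). NDUFB9, a complex I subunit, differed without passing the test in T98G itself (log2FC 0.95, adjusted p = 0.14).

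Among the largest falls the difference was negative for H2AC12 (−4.48), IER3 (−5.83), H2BC12 (−4.71), SOD3 (−4.15), HLA-DPB1 (−3.83), CPE (−2.41), TUBB2B (−2.75), HSD11B1 (−3.21), FAM83G (−2.70), PLEK (−2.70), and MXRA8 (−2.81). Smaller genes of the lists with a negative difference were FOXF2 (−1.68), LAMB3 (−2.10), POSTN (−2.22), SMOC1 (−1.60), MT1F (−1.75), HOXB6 (−1.40), IGF2 (−1.97), LTBP1 (−2.46), and DPYSL3 (−1.19). MT1F and DPYSL3 did not pass the test of the T98G change itself, with log2FC −1.40 (adjusted p = 0.0907) and log2FC −1.01 (adjusted p = 0.0557).

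TAGLN, the smooth muscle actin-binding protein transgelin, differed by −4.33 (adjusted p = 3.00e-05), but in T98G its change was log2FC −1.04 (adjusted p = 0.34). In the other lines its log2FC was 5.39 in U87MG, 0.11 in U251MG, and 4.35 in DBTRG-05MG.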

How the results depend on the processing

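The count of T98G calls (100) moved with the analysis. It was 180 with DESeq2, 64 with edgeR, 61 with limma-voom, 51 with a filter on a mean of 5 CPM, 16 with the T98G libraries alone, 234 with the GC and length correction, and, as alternatives chosen after seeing the data, 52 with that correction in T98G alone and 460 with it without “Vec” 2. The count of differences from the other lines (121) was 235 with DESeq2, 64 with edgeR, 80 with limma-voom, 72 with the mean filter, 356 with the GC correction, and 630 with it without “Vec” 2. Library quality weights gave 4046 and 3416 calls, with weights from 0.252 for “Vec” 2 to 6.36 for “Vec” 1, so these counts rest mainly on “Vec” 1, and WWOX then passed (log2FC 0.55, adjusted p = 0.000539). Leaving out a library gave 32 to 302 calls (302 without “Vec” 2, 34 without “Vec” 1, 43 without “Vec” 3, 32 without “WWOX” 3) and 45 to 281 differences (281 without “Vec” 2, 46 without “Vec” 1, 63 without “Vec” 3, 67 without “WWOX” 2, 45 without “WWOX” 3, and 194 without U251MG “WWOX” 2). Without single libraries WWOX ran from 0.31 to 0.51 and the chromosome 17 median from −0.48 to −0.30.

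Deviations of T98G libraries with the same replicate number correlated at 0.476 for number 1, 0.542 for number 2, and −0.418 for number 3. Whether a number marks libraries prepared together was not given and was not tested. The replicate block gave 45 calls (18 up, 27 down; 43 shared with the 100) and 59 differences.

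No value changed direction with a call. Of 5648 values for named genes, 5288 kept their side of the threshold, 168 lost a call, and 192 gained one. Values without a call could change sign. CEP55 ran from log2FC −0.76 to 0.41 and ATAD2 from −0.71 to 0.43 when single libraries were left out. List medians moved by more than the spread between libraries in 74 of 1596 values and chromosome medians in 5 of 168. Depth limits genes near 5 CPM, and the number of libraries, 3 per variant, limits the precision of every value.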

Other observations

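The calls that belong to none of the named genes numbered 65, of which 26 rose and 39 fell. Those named here were chosen after their values were seen. KDELR2, a receptor that returns ER proteins from the Golgi, was at 2.32, 6.08, and 1.71 CPM in “Vec” and 6.69, 11.4, and 15.8 CPM in “WWOX”, log2FC 1.72 (SE 0.35, adjusted p = 0.0132). SRPRB, the membrane anchor of the signal recognition particle receptor, was at 1.90, 4.76, and 2.72 CPM in “Vec” and 9.20, 8.91, and 13.01 CPM in “WWOX”, log2FC 1.66 (SE 0.38, adjusted p = 0.0335). LRRC59, a ribosome-binding protein of the ER membrane, PDIA5, a protein disulfide isomerase, and SEC24C, a coat protein of vesicles leaving the ER, had log2FC 1.53, 1.13, and 0.88. In KDELR2 and SRPRB every “WWOX” library lay above every “Vec” library.

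Falls outside the named genes included GJA1, the gap junction protein connexin 43, at 6.47, 19.7, and 4.51 CPM in “Vec” and 0.930, 3.19, and 1.98 CPM in “WWOX”, log2FC −1.93 (SE 0.46, adjusted p = 0.037). TBX2, a T-box repressor, was at 23.8, 28.8, and 44.5 CPM in “Vec” and 7.07, 8.68, and 4.09 CPM in “WWOX”, log2FC −2.22 (SE 0.42, adjusted p = 0.0075). CAPG, an actin filament capping protein, was at 52.02, 12.3, and 39.5 CPM in “Vec” and 6.97, 3.86, and 3.43 CPM in “WWOX”, log2FC −2.58 (SE 0.54, adjusted p = 0.0172). JUP, the junction protein plakoglobin, CREB3L1, an ER-bound transcription factor, SMURF2, a ubiquitin ligase of the TGF-β pathway, and CCN4, a Wnt-induced matrix protein, had log2FC −1.45, −1.76, −1.13, and −1.69. TBX2, JUP, and SMURF2 lie on chromosome 17. Of all 100 calls, 57 overlapped an annotated gene on the other strand and 40 one on the same strand.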
